A study of Mus musculus with 12 samples.

Results

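Tumour necrosis factor, the receptors it binds, the related receptor RANK and the TRAF adaptors were followed in the spleens of 12 mice on 3 diets. The genes were chosen by symbol, namely Tnf, Tnfrsf1a, Tnfrsf1b, Tnfrsf11a, Traf1, Traf2, Traf3, Traf5 and Traf6. Probes named 8 of these 9 genes, among 19057 genes with a symbol on the array, and Traf3 was not analysed here. Several of the 8 had more than 1 probe, 19 probes in all, and each gene was represented by its probe with the highest mean over the 12 mice. The mice were male C57BL/6J, with no altered allele named, 6 weeks old at arrival and acclimatized for 3 weeks before 8 weeks on the diets. Fat made up 5 g per 100 g of control diet, as 2.5 g corn oil and 2.5 g coconut oil, with no added cholesterol. Each high-fat diet contained 15 g of fat with 1 g of added cholesterol per 100 g. In HFD-CO the fat was 5 g corn oil and 10 g coconut oil, and in HFD-ED it was 3 g corn oil, 10 g coconut oil and 2 g of an oil rich in eicosapentaenoic acid (EPA) and docosahexaenoic acid (DHA), which are marine n-3 fatty acids. Each diet had 4 arrays, each from the RNA of 1 mouse, and the mice had been picked by body weight and plasma lipids. The comparisons address how a high-fat diet, and marine oil within it, alter immune gene expression in the spleen.

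TNF is a cytokine made chiefly by macrophages and lymphocytes, and it binds the receptors encoded by Tnfrsf1a (TNFR1, present on most cells) and Tnfrsf1b (TNFR2, mainly on immune cells). RANK, encoded by Tnfrsf11a, is the receptor for RANKL and is best known for osteoclast formation and lymph node development. TRAF proteins bind the inner tails of these receptors or adaptors already bound there, and pass the signal to the NF-κB and MAP kinase pathways. In the spleen, TNF and its receptors are known for the upkeep of B cell follicles and of the follicular dendritic cell network.

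The values are log2 expression levels, variance-stabilized and quantile normalized by the authors, and the transformation compresses differences of dim probes. All 45281 probes spanned 6.95 to 14.79 with a median of 7.14, and across probes, arrays within a diet had correlations between 0.971 and 0.995. One protocol field of the labels mentions skeletal muscle whereas the tissue field gives spleen. Per mouse, the mean level was 8.90 to 9.41 over 10 B cell markers and 10.60 to 10.87 over 14 macrophage and monocyte markers. Over 11 skeletal muscle markers it was 7.19 to 7.25. Single markers varied, with the B cell genes Cd79b at 12.72 and Pax5 at 7.08 and the macrophage genes Slc40a1 at 13.21 and Itgam at 7.13. Of the skeletal muscle markers 7 of 11, Acta1 at 7.10 and Ckm at 7.04 among them, were below the array's median. The highest of them, Tnni2, was at 7.97. HFD-ED replicate 3 stood apart from the other arrays, with a score of 37.5 on the first principal component, which carried 42.9% of the variance, against 17.3 for the next mouse. Where leaving out this mouse moved a member's difference from control by over 1.5 times, the value without it is given. The same holds for counts and most list genes that turn on it.

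No member gene passed an adjusted p of 0.05 in any comparison of diets. The lowest levels of Tnf were those of the 4 HFD-ED mice, and HFD-ED was also lower than HFD-CO for Tnfrsf11a and Traf6 at an unadjusted level only. In limma, with Benjamini-Hochberg adjustment over all probes, 0 of 8 members were called in HFD-ED against control, where 0% of all probes were called, 0 of 8 in HFD-CO against control, where 0% were, and 0 of 8 in HFD-ED against HFD-CO, where 0.00221% were, a single probe. The smallest adjusted p among the members was 0.297, 1 and 0.319 in that order. At an unadjusted limma p under 0.05, HFD-ED was lower than control for 2 members, Tnf and Traf6, where 7.55% of all genes were lower, and lower than HFD-CO for 3, with Tnfrsf11a added, where 5.82% were. Without HFD-ED replicate 3 the counts were 1 and 2, Traf6 being lost from both, beside 6.01% and 4.38% of all genes lower. No member was higher at that level, as 5.69% of all genes were against control and 6.07% against HFD-CO. In HFD-CO against control 0 members passed it, beside 2.88% of all genes lower and 2.12% higher. At any size of difference, 6 of 8 members were lower on HFD-ED than control and 7 of 8 lower than HFD-CO, beside 54.1% and 53% of all genes, and 2 of 8 were lower on HFD-CO than control, beside 52.2%. The median difference over the 8 members was -0.04 in HFD-ED against control, 0.05 in HFD-CO against control and -0.11 in HFD-ED against HFD-CO, beside medians of -0.0036, -0.0018 and -0.0026 over all genes. Each pair of comparisons shares the mice of 1 diet, so they are not independent of each other. The RNA came from whole spleen, so fewer cells of a type and less RNA per cell cannot be told apart.

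**Figure D1:**
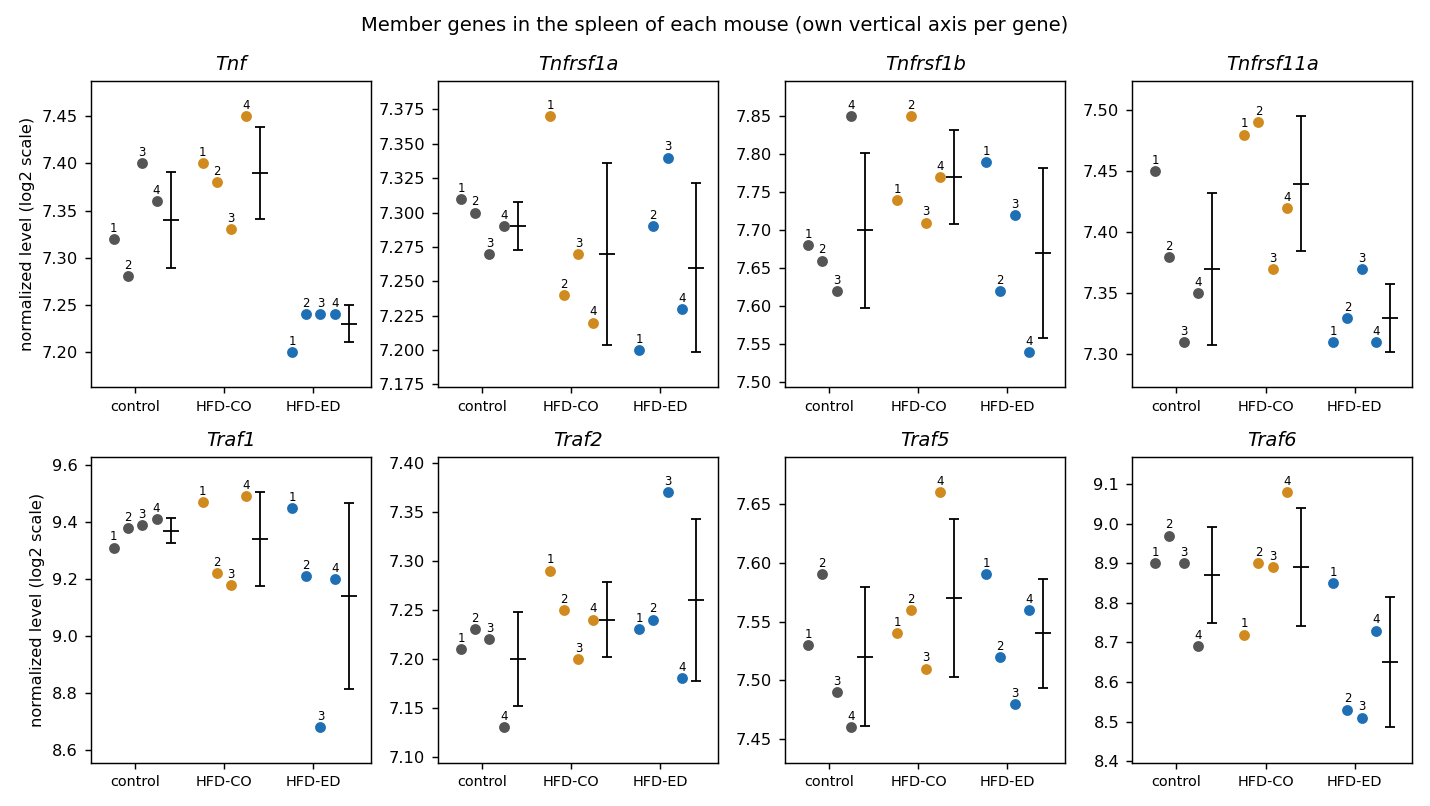
Log2 expression level of each measured member gene (vertical axis, 1 panel per gene with its own range) in every mouse, by diet. Points are single mice and horizontal bars are the means of 4 mice; the HFD-ED points of Tnf lie below all others, from 7.20 to 7.24, and the lowest point of Traf1, 8.68, is HFD-ED replicate 3.

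The sequences just upstream of Tnf, Tnfrsf11a and Traf6 are shown because these are the members with an unadjusted p under 0.05 in HFD-ED against HFD-CO. They are RefSeq sequences of build GRCm38.p6, written 5′ to 3′ on the gene's strand. Those of Tnf and Traf6 end at the base before the transcription start. That of Tnfrsf11a is the 200 bases farthest from the start in its 250-base window. Capitals mark TATAAA, the TATA box, and GGGCGG, the core of a GC box, on either strand.
Tnf, chr17:35202008-35202257, minus strand: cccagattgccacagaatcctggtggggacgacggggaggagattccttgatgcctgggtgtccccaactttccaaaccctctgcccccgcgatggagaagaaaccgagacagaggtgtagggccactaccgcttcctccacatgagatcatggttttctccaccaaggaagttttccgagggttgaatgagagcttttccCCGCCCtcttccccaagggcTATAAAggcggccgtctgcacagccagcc
Tnfrsf11a, chr1:105780473-105780672, plus strand: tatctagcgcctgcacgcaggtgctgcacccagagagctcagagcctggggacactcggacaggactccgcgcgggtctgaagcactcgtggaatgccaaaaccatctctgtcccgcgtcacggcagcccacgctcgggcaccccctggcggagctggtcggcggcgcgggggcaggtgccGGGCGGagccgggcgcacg
Traf6, chr2:101678170-101678419, plus strand: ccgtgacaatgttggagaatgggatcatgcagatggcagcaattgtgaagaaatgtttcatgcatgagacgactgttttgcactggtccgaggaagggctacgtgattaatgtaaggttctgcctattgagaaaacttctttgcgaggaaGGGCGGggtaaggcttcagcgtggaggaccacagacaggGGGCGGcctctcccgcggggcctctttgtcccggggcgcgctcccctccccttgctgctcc

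The Tnf sequence holds 1 TATAAA, beginning at position -29 from the start, and 1 GGGCGG at position -49 on the opposite strand. A search of the 250 bases before the start, on both strands, found TATAAA in 12.4% and GGGCGG in 32.7% of 32851 promoters in the table. Tnf was the only member with TATAAA in that window. In the same window GGGCGG occurred 4 times for Tnfrsf11a, of which 1 is in the printed stretch, and 2 times for Traf6, while Tnfrsf1a, Traf1 and Traf2 had none. The NF-κB consensus motif, found in 7.25% of promoters, was not matched in this window for any of the 8 measured members. These are matches of letters and not measured binding.

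Tnf, the ligand, had levels of 7.32, 7.28, 7.40 and 7.36 in the 4 control mice, replicates 1 to 4. The HFD-CO mice had 7.40, 7.38, 7.33 and 7.45, and the HFD-ED mice 7.20, 7.24, 7.24 and 7.24. All 4 HFD-ED mice were below all 8 others, as was so for 0.871% of all genes, while control and HFD-CO overlapped. The means were 7.23 ± 0.0196 on HFD-ED, 7.34 ± 0.0509 on control and 7.39 ± 0.049 on HFD-CO (SD, n = 4). HFD-ED minus control was -0.11 ± 0.029 (SE), with an unadjusted p of 0.00276 and an adjusted p of 0.297 in limma. HFD-ED minus HFD-CO was -0.16 (95% interval -0.22 to -0.09, per gene and not adjusted for the number of genes, as are those that follow), with an unadjusted p of 0.000211 and an adjusted p of 0.319 in limma. The distance between the highest HFD-ED mouse, 7.244, and the lowest control mouse, 7.284, was small beside the spread of 0.25 over all mice. With each mouse left out in turn, HFD-ED minus control lay between -0.13 and -0.09 and HFD-ED minus HFD-CO between -0.18 and -0.14, with no adjusted p in limma under 0.05. Control and HFD-CO, neighbours in the order of the means, differed by 0.05 (95% interval -0.02 to 0.11). The mean of the Tnf probe over the 12 mice was 7.32, a dim level beside the array's median of 7.14, where differences are compressed. Of all probes 69.2% had a lower mean.

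The second Tnf probe separated HFD-ED from HFD-CO but not from control. Its HFD-ED mice, at 7.21 to 7.25, were below the 4 HFD-CO mice, at 7.26 to 7.36, and overlapped the control mice. Its means were 7.24 on control, 7.30 on HFD-CO and 7.23 on HFD-ED, and HFD-ED minus control was -0.01. Its HFD-ED minus HFD-CO difference was -0.07 (adjusted p = 0.475 in limma). Across the 12 mice its correlation with the first probe was 0.58, given as a description.

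Tnfrsf1a, the receptor with a death domain, differed little between diets. Its levels were 7.31, 7.30, 7.27 and 7.29 on control, 7.37, 7.24, 7.27 and 7.22 on HFD-CO and 7.20, 7.29, 7.34 and 7.23 on HFD-ED. The 3 diets overlapped, and the differences were -0.03 for HFD-ED minus control (95% interval -0.11 to 0.05, and -0.05 without HFD-ED replicate 3), -0.02 for HFD-CO minus control and -0.01 for HFD-ED minus HFD-CO. The other probes of this gene correlated with the first at -0.23 and 0.29 over 12 mice. All of its probes, the one used at a mean of 7.28 and the others at 7.26 and 7.25, were close to the floor of the array.

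Tnfrsf1b, the receptor through which TNF acts mainly on leukocytes, had 7.68, 7.66, 7.62 and 7.85 on control. It had 7.74, 7.85, 7.71 and 7.77 on HFD-CO and 7.79, 7.62, 7.72 and 7.54 on HFD-ED. These ranges overlapped, with means of 7.70 ± 0.102, 7.77 ± 0.0618 and 7.67 ± 0.112 (SD, n = 4). HFD-ED minus control was -0.03 (95% interval -0.17 to 0.10, and -0.053 without HFD-ED replicate 3) and HFD-ED minus HFD-CO -0.10 (95% interval -0.24 to 0.04), with an adjusted p of 0.677 in limma for the latter. The other probes of Tnfrsf1b, dimmer at means of 7.12 and 7.10, correlated with the first at -0.66 and -0.34 over 12 mice. Their HFD-ED minus HFD-CO differences were 0.01 and 0.00.

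Tnfrsf11a, which encodes RANK and was measured by a single dim probe with a mean of 7.38, was lower on HFD-ED than on HFD-CO in every mouse. Its levels were 7.48, 7.49, 7.37 and 7.42 on HFD-CO and 7.31, 7.33, 7.37 and 7.31 on HFD-ED. The highest HFD-ED mouse, 7.367, and the lowest HFD-CO mouse, 7.375, were almost level, so that the groups were separate by a narrow margin. Control mice, at 7.45, 7.38, 7.31 and 7.35, overlapped both. HFD-ED minus HFD-CO was -0.11 (95% interval -0.19 to -0.04), with an unadjusted p of 0.00662 and an adjusted p of 0.436 in limma. HFD-ED minus control was -0.04 (95% interval -0.12 to 0.03) and HFD-CO minus control 0.07 (95% interval -0.00 to 0.15). Tnf and Tnfrsf11a were the 2 members with no overlap between HFD-ED and HFD-CO, against 2.61% of all genes lower without overlap. Tnf was the 1 such member of HFD-ED against control, beside 3.49% of all genes, and HFD-CO against control had 0, beside 1.85%.

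Traf1, an adaptor without the RING domain of the other TRAFs and known as a target of NF-κB, was the member with the widest spread between mice, 0.81. Control mice had 9.31, 9.38, 9.39 and 9.41, and HFD-CO mice 9.47, 9.22, 9.18 and 9.49. The HFD-ED mice had 9.45, 9.21, 8.68 and 9.20. The 3 diets overlapped, and HFD-ED replicate 3 was lowest of all. HFD-ED minus control was -0.24 ± 0.138 (SE, adjusted p = 0.613 in limma), -0.08 without HFD-ED replicate 3 and -0.34 without HFD-ED replicate 1. HFD-ED minus HFD-CO was -0.20 (adjusted p = 0.704 in limma) and -0.05 without HFD-ED replicate 3. The second Traf1 probe, correlated at 0.79 with the first over 12 mice, also had its lowest value, 8.55, in HFD-ED replicate 3, with differences of -0.20 and -0.16.

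Traf2, a ubiquitin ligase adaptor of both TNF receptors, was measured by a single probe. Its levels were 7.21, 7.23, 7.22 and 7.13 on control, 7.29, 7.25, 7.20 and 7.24 on HFD-CO, and 7.23, 7.24, 7.37 and 7.18 on HFD-ED. The groups overlapped, and here HFD-ED replicate 3 was highest. HFD-ED minus control was 0.06 (95% interval -0.03 to 0.15) and HFD-ED minus HFD-CO 0.01 (95% interval -0.07 to 0.10). Without HFD-ED replicate 3 they were 0.021 and -0.026.

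Traf5, an adaptor of several TNF family receptors in lymphocytes, had 7.53, 7.59, 7.49 and 7.46 on control, 7.54, 7.56, 7.51 and 7.66 on HFD-CO and 7.59, 7.52, 7.48 and 7.56 on HFD-ED. The groups overlapped, and HFD-ED minus control was 0.02 (95% interval -0.07 to 0.10, and 0.036 without HFD-ED replicate 3), HFD-ED minus HFD-CO -0.03 (95% interval -0.12 to 0.05). A second, dimmer Traf5 probe had its 4 HFD-CO mice between 7.28 and 7.32, above the 4 control and the 4 HFD-ED mice. On this probe HFD-ED minus HFD-CO was -0.07 (adjusted p = 0.453 in limma), HFD-CO minus control 0.06 and HFD-ED minus control -0.002. It correlated at 0.18 with the first probe over 12 mice.

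Traf6, the adaptor of RANK, CD40 and the interleukin-1 and Toll-like receptors, had 8.90, 8.97, 8.90 and 8.69 on control. The HFD-CO mice had 8.72, 8.90, 8.89 and 9.08, and the HFD-ED mice 8.85, 8.53, 8.51 and 8.73. HFD-ED replicates 2 and 3 were the lowest of the 12 mice, while replicates 1 and 4 lay within the range of the other diets. HFD-ED minus control was -0.21 ± 0.0951 (SE), with an unadjusted p of 0.0487 and an adjusted p of 0.487 in limma. HFD-ED minus HFD-CO was -0.24 (95% interval -0.45 to -0.03), with an unadjusted p of 0.0286 and an adjusted p of 0.497 in limma. Without HFD-ED replicate 3 the differences were -0.16 and -0.19. Of the 5 Traf6 probes, the third in brightness had all 4 HFD-ED mice below the 4 control mice, with a difference of -0.08 (adjusted p = 0.351 in limma). The probes correlated with the brightest at 0.39, 0.55, 0.00 and 0.18 over 12 mice.

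**Figure D2:**
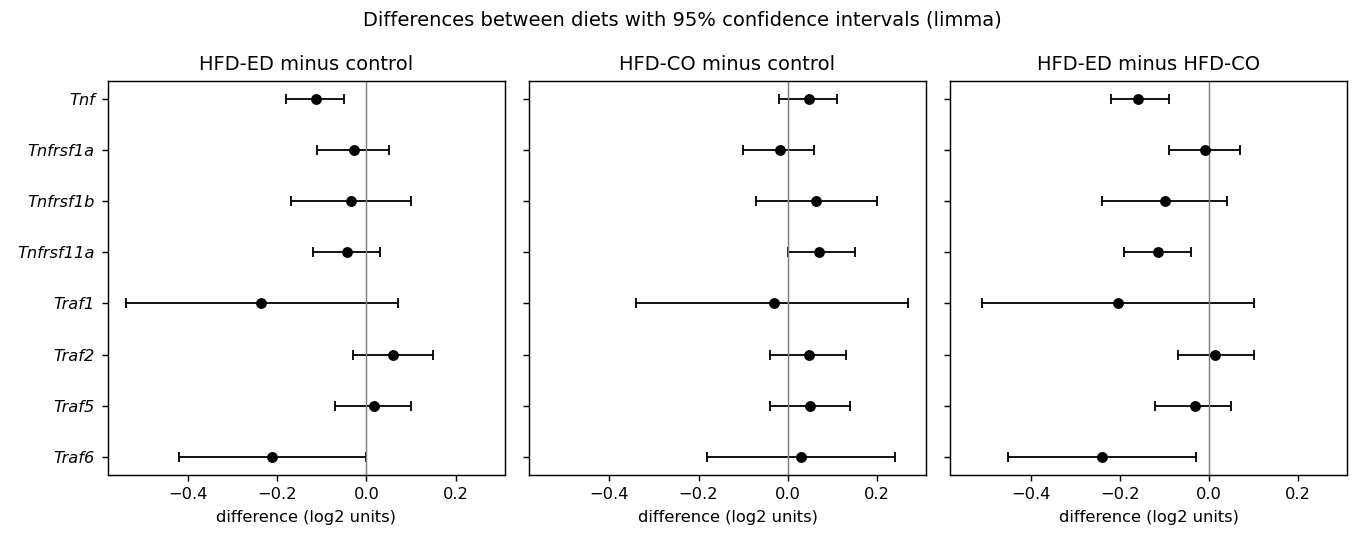
Difference between diets in log2 units (horizontal axis) for each measured member gene, in the 3 comparisons, with 95% intervals from limma not adjusted for the number of genes. The Tnf intervals for HFD-ED against control, -0.18 to -0.05, and against HFD-CO, -0.22 to -0.09, lie below 0, and every interval of HFD-CO against control includes 0.

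**Figure D3:**
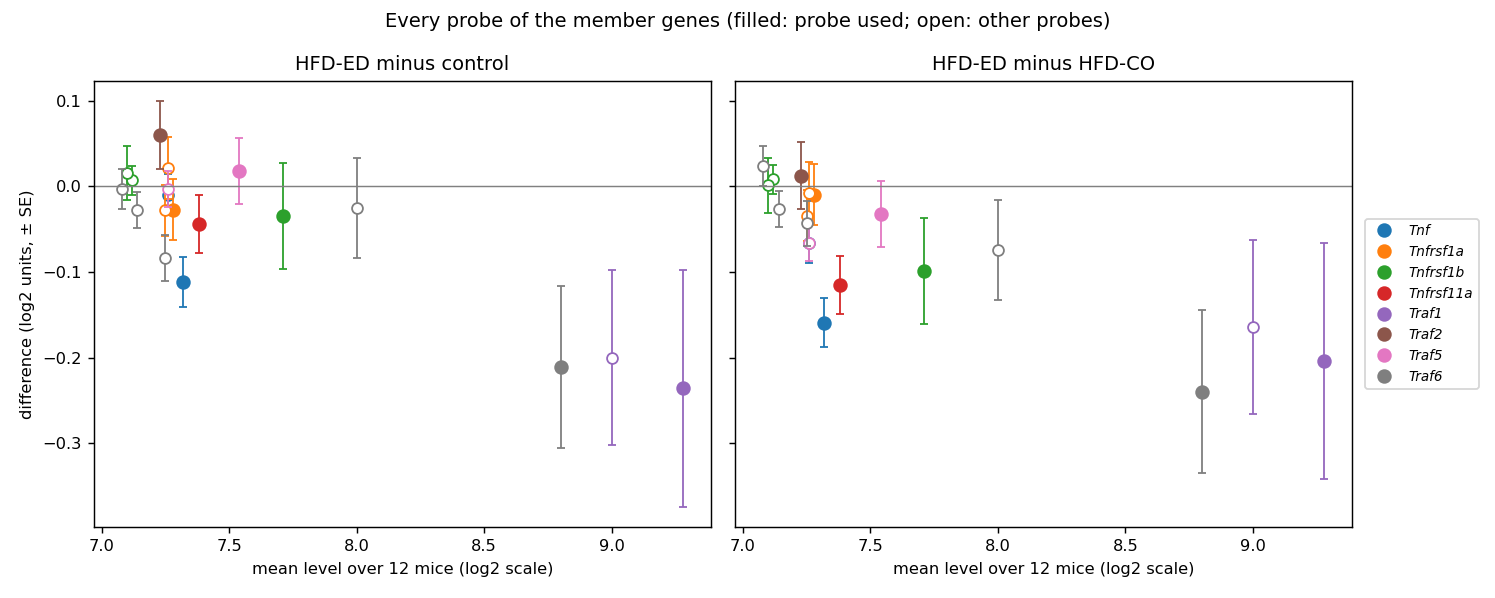
Difference of HFD-ED from control (left) and from HFD-CO (right) in log2 units, ± SE from limma, against the mean log2 level over 12 mice, for all 19 probes of the member genes. Filled points are the probes used and open points the others; in the right panel the second probes of Tnf and Traf5 fall on one spot, at a mean of 7.26 and a difference of -0.07.

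Members varied little in absolute terms, with 5 of the 8 spanning under 0.3 log2 units over all 12 mice. HFD-CO replicate 4 had the highest level of Tnf, Traf1, Traf5 and Traf6. Over the 12 mice Traf5 and Traf6 correlated with r = 0.65, and 0.82 after each diet's mean was removed. Tnf and Tnfrsf11a correlated with r = 0.55, and -0.15 within diets. Pairs share their arrays, and these correlations are descriptions.

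Among 19056 other genes, those most like Tnf over the 12 mice were Bnip5 (r = 0.896), Ap3m2 (r = 0.892) and Gm11696 (r = 0.888). For Tnfrsf11a they were Ubxn6 (r = 0.949), Tshz2 (r = 0.928) and Atp11b (r = 0.909), and for Traf6 they were Ankrd10 (r = 0.935), Prkd3 (r = 0.931) and Avl9 (r = 0.926). With each diet's mean removed, r was 0.938 for Ubxn6 with Tnfrsf11a and 0.922 for Ankrd10 with Traf6, while for Tnf it was 0.793 with Bnip5, 0.461 with Ap3m2 and 0.671 with Gm11696. The genes share arrays, and likeness was the criterion by which they were picked.

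Several cell type marker lists deviated strongly in HFD-ED replicate 3, the mouse with the lowest Traf1 and Traf6. In HFD-ED replicate 3 the mean of 10 B cell markers deviated from the 12-mouse mean by -0.39 log2 units and that of 11 T cell markers by -0.45, whereas 16 neutrophil markers deviated by 1.63 and 16 erythroid markers by 1.34. HFD-ED replicate 2 was next lowest for Traf6, at 8.53. Its B cell list deviated by -0.09, its T cell list by 0.04, its neutrophil list by 0.55 and its erythroid list by 0.79. For Traf1 the next lowest was HFD-CO replicate 3, at 9.18. There the B cell list deviated by 0.00, the T cell list by -0.01, the neutrophil list by -0.43 and the erythroid list by 0.37. The neutrophil list deviated by -0.53 to 0.23 in control mice, -0.66 to -0.25 in HFD-CO mice and -0.22 to 1.63 in HFD-ED mice. The mean level of the B cell list was 9.28 to 9.41, 9.29 to 9.41 and 8.90 to 9.33 on the 3 diets in that order, and that of the T cell list 9.04 to 9.17, 9.08 to 9.20 and 8.64 to 9.14. Macrophage markers, for a cell type that makes TNF, had mean levels of 10.76 to 10.87 on control, 10.66 to 10.74 on HFD-CO and 10.60 to 10.83 on HFD-ED. Megakaryocyte markers, 7 genes, deviated by 0.03 to 0.73 on HFD-ED, above the -0.18 to -0.02 of control and the -0.37 to -0.22 of HFD-CO. The 9 NK cell markers deviated by -0.24 to -0.04 on HFD-ED, 0.03 to 0.16 on control and -0.07 to 0.08 on HFD-CO, and the 10 dendritic cell markers by -0.18 to -0.02, -0.00 to 0.14 and -0.02 to 0.03. The part of these cell types in the member differences was not tested. HFD-CO replicates 1 and 4 had high pancreatic enzyme genes, the 12 markers deviating by 1.06 and 4.96. The share of pancreas RNA in the member values of HFD-CO was not tested, and without the latter mouse HFD-ED minus HFD-CO was -0.14 for Tnf, -0.12 for Tnfrsf11a and -0.18 for Traf6, whose unadjusted limma p was then 0.0881. Of the genes the study picked on these arrays, Adipoq, an adipocyte hormone, differed by 0.17 from control and -0.45 from HFD-CO on HFD-ED (adjusted p = 0.884 and 0.61 in limma). Its difference from control turned on single mice. It was 0.26 without HFD-ED replicate 3, -0.00 without HFD-ED replicate 2, 0.00 without control replicate 2 and 0.38 without control replicate 1. Ltf, a neutrophil granule protein, differed by 1.33 and 2.09 (adjusted p = 0.491 and 0.424 in limma), and the former was 0.87 without HFD-ED replicate 3.

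**Figure D4:**
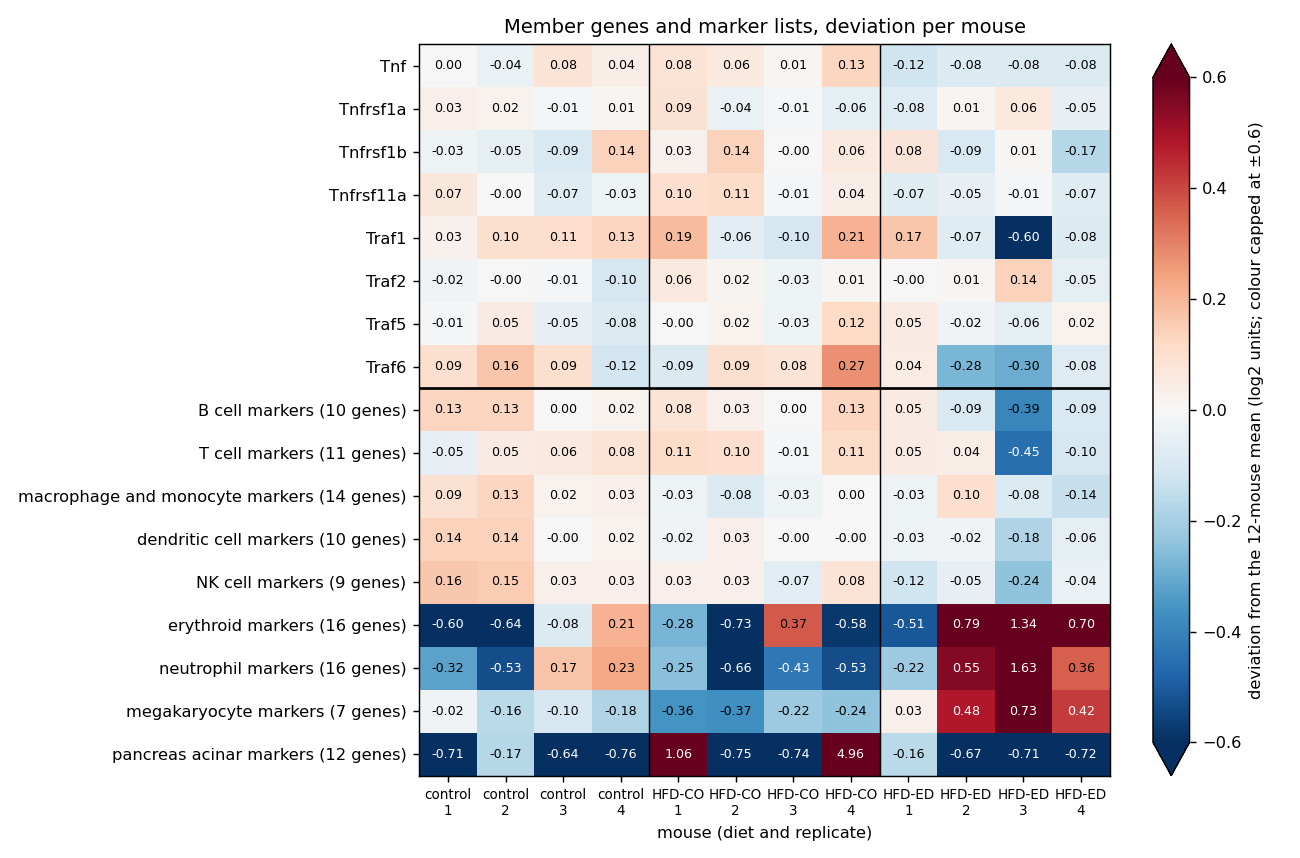
Deviation of each member gene and of the mean of each cell type marker list from its 12-mouse mean, in log2 units (colour), for every mouse in columns. In HFD-ED replicate 3 the neutrophil and erythroid lists deviate by 1.63 and 1.34 and the B and T cell lists by -0.39 and -0.45.

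The wider pathway was described with 6 lists holding 133 measured genes other than members. None was called at an adjusted p of 0.05 in any comparison of all mice in limma. At an unadjusted p under 0.05, 22 of the 133 were lower and 3 higher in HFD-ED against control, or 16.5% lower, beside the 7.55% of all genes given above. In HFD-ED against HFD-CO 23 were lower and 6 higher, beside 5.82% and 6.07% of all genes, and in HFD-CO against control 3 were lower and 2 higher, beside 2.88% and 2.12%. Without HFD-ED replicate 3 the lower genes were 18 against control and 15 against HFD-CO, beside 6.01% and 4.38% of all genes. Without HFD-CO replicate 4 those against HFD-CO were 15, beside 4.68% of all genes. Without HFD-ED replicate 1, 1 of the 133, Nfatc1, the transcription factor induced by RANK signalling in osteoclasts, was called lower than control, with a difference of -0.42 (adjusted p = 0.0366 in limma), against -0.29 (adjusted p = 0.41) with all mice. In that setting 58 of all 19057 genes were called against control. The median differences were -0.028, -0.015 and -0.002 in that order.

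TNF family ligands other than Tnf had 16 of 17 genes measured, 12 of them lower and 4 higher on HFD-ED than on control at any size of difference. Of all genes 54.1% were lower in that comparison. Ltb, the membrane partner of lymphotoxin, lay between 9.99 and 10.02 on HFD-ED, below the 10.07 to 10.39 of control and the 10.24 to 10.39 of HFD-CO. Its differences were -0.18 against control (adjusted p = 0.41 in limma) and -0.30 against HFD-CO (adjusted p = 0.337). Lta, lymphotoxin alpha, which lies beside Tnf in the genome, had 7.90, 8.01, 7.93 and 8.05 on HFD-ED, with differences of -0.17 and -0.22 (adjusted p = 0.4 and 0.381 in limma).

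Other receptors of the TNF superfamily were all measured, 25 of 25, with 16 lower and 9 higher on HFD-ED than on control, beside 54.1% of all genes lower. Cd40, the costimulatory receptor of B cells and dendritic cells, had 10.11, 10.08, 9.76 and 10.22 on HFD-ED. Every control mouse, at 10.56 to 10.60, and every HFD-CO mouse, at 10.32 to 10.52, was above them. The difference from control was -0.53 ± 0.0813 (SE), with an adjusted p of 0.193 in limma, and from HFD-CO -0.40 with an adjusted p of 0.337. Cd27, a receptor of T and memory B cells, differed by -0.45 ± 0.195 (SE) from control (adjusted p = 0.466 in limma), and by -0.23 without HFD-ED replicate 3. For Cd40 the differences without that mouse were -0.43 and -0.30.

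The proteins that assemble on TNF receptors and act downstream were 37 of 40 measured, with 25 lower and 12 higher on HFD-ED than on control, and 8 of the 37 lower at an unadjusted p under 0.05, beside 54.1% of all genes lower at any size and 7.55% lower at that p. Cyld, a deubiquitinase that restrains NF-κB, was at 9.90 to 10.26 on HFD-ED, 10.34 to 10.71 on control and 10.27 to 10.41 on HFD-CO. Its difference from control was -0.38 ± 0.087 (SE), and -0.31 without HFD-ED replicate 3. Birc2, the ubiquitin ligase cIAP1 that works with TRAF2, differed by -0.36, Map3k8, a MAP kinase kinase kinase, by -0.28, and Casp8, the initiator caspase of death receptors, by -0.25, each with an adjusted p of 0.252 in limma, as for Cyld. Sphk1, which makes sphingosine-1-phosphate and was named after its values were seen, ran the other way. It had 8.42, 9.72, 10.84 and 9.93 on HFD-ED against 8.10, 8.13, 8.75 and 9.18 on control, a difference of 1.19 ± 0.448 (SE, adjusted p = 0.411 in limma), with its highest level in HFD-ED replicate 3 and a difference of 0.82 without that mouse.

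Further TRAF and TRAF-binding genes were 14 of 16 measured, 8 lower and 6 higher on HFD-ED than control, beside 54.1% of all genes lower. The smallest adjusted p of this list against control, 0.344 in limma, belonged to Traf3ip3, with a difference of 0.06. Trafd1, a brake on Toll-like receptor signalling, differed by -0.27 (adjusted p = 0.374 in limma).

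The RANK pathway list had 20 of 20 genes measured, with 11 lower and 9 higher on HFD-ED than on control, near the 54.1% of all genes lower. Against HFD-CO, 16 were lower and 4 higher, beside 53% of all genes lower. Ctsk, the bone matrix protease of osteoclasts, was at 7.48, 7.40, 7.40 and 7.48 on HFD-ED, below every mouse of the other diets, with differences of -0.14 and -0.15 (adjusted p = 0.362 and 0.436 in limma). Map3k14, the kinase NIK of the non-canonical NF-κB route, differed by -0.32 from both other diets, and Nfkb2, its target subunit, by -0.22 and -0.18. Their adjusted p were 0.403 and 0.372 against control in limma.

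Genes known to be induced by TNF had 30 of 32 measured, with 24 lower and 6 higher on HFD-ED than on control, beside 54.1% of all genes lower. Against HFD-CO, 18 were lower and 12 higher, beside 53% of all genes lower. Irf1, an interferon-response factor, was at 11.84 to 12.39 on HFD-ED, 12.43 to 12.53 on control and 12.53 to 12.65 on HFD-CO, with differences of -0.29 and -0.38 (adjusted p = 0.359 and 0.345 in limma), or -0.18 and -0.27 without HFD-ED replicate 3. Icam1, an adhesion molecule, differed by -0.27 and -0.28. Ccl5, a T cell chemokine, differed by -0.48 ± 0.145 (SE) from control (adjusted p = 0.342 in limma), and like Nfkb2 and Tnfrsf11a it was picked by the study on these arrays, so its direction is not independent evidence. Of the higher genes, Cxcl2, a neutrophil chemokine, was the only gene without overlap. It was at 7.13 to 7.16 on HFD-ED and 7.06 to 7.10 elsewhere, with a difference of 0.07 from control at a dim level. Larger differences, with overlap, were those of Mmp9, also in the neutrophil marker list, at 0.54 from control and 0.49 from HFD-CO. Tnfaip2 differed by 0.305 and 0.406, and Bcl2l1 by 0.23 and 0.25. Mmp9, Tnfaip2 and Bcl2l1 were named after their values were seen. On Cd40, Cyld and Irf1, HFD-ED replicate 3 was the lowest of the 12 mice, as on Traf1 and Traf6.

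**Figure D5:**
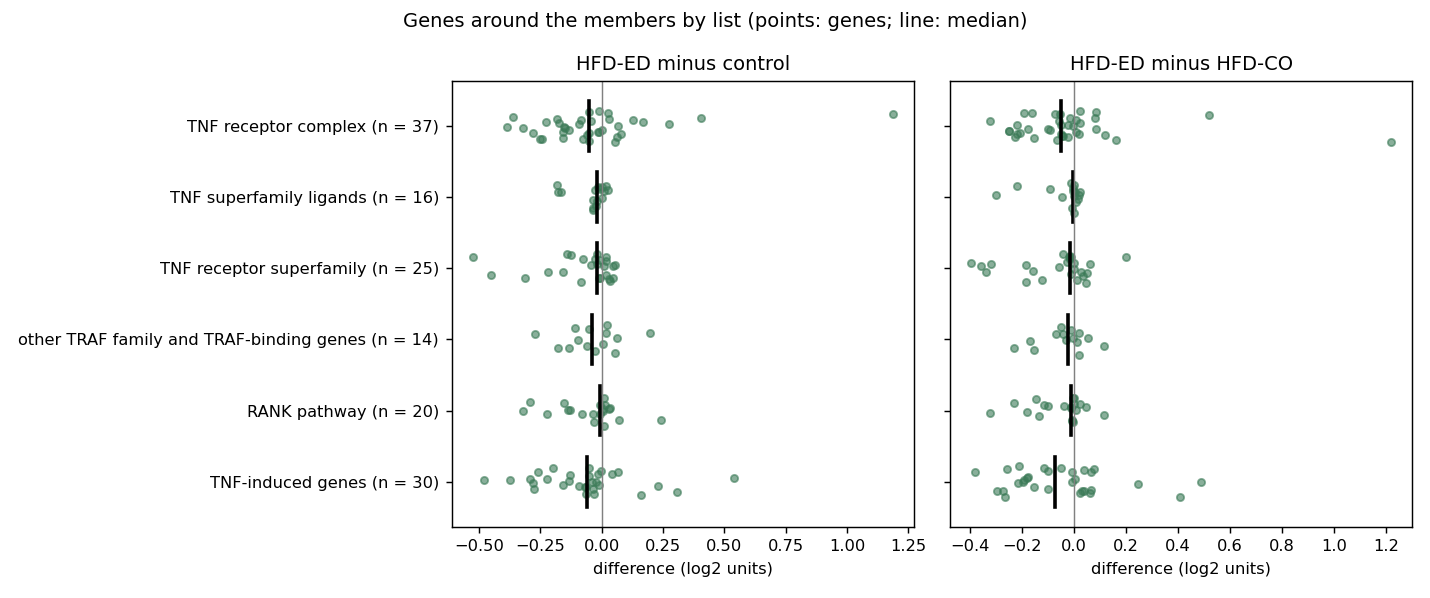
Difference between diets in log2 units for each measured gene of the 6 pathway lists, for HFD-ED minus control (left) and HFD-ED minus HFD-CO (right). Points are genes and bars are list medians; the medians lie between -0.08 and -0.00, and Sphk1, at 1.19 and 1.22, is the gene farthest above 0.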

How the data were processed

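RNA from 12 mouse spleens, 1 array each, was measured on Illumina MouseWG-6 BeadChips. The authors read bead intensities in GenomeStudio and applied variance stabilization and quantile normalization with lumi (version 2.18.0 in the submitters' processing notes). The deposited log2 values were used unchanged, with no filter. Of 45281 probes, 34885 had 1 symbol, 18 several and 10378 none. Per gene the probe with the highest mean was used.

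One limma 3.58.1 model (lmFit, eBayes, two-sided) in R 4.3.3 covered the 3 diets, with p-values adjusted over all probes per comparison by Benjamini-Hochberg. Calls were made at 0.05, and at the 0.001 of the study's methods, which called no probe. The member genes, pathway lists and markers were chosen with earlier results of these data known. Named genes were all members, a few genes the study names (Nfkb2, Ccl5, Adipoq and Ltf), per list up to 4 genes with the smallest p between HFD-ED and control, 2 between HFD-ED and HFD-CO, and the 3 genes most like Tnf, Tnfrsf11a and Traf6. The test was run on simulated data first. In it 200 of 45281 probes, picked at random, were shifted in HFD-ED against control, part of them by 0.5 log2 units and the rest by 0.25. A median of 89.5% were recovered at a shift of 0.5 log2 units and 76% at 0.25, with a median of 8.5 false calls. The noise was drawn independently for each probe, whereas probes on the real arrays vary together. These rates therefore do not tell which shifts would have been called in the real data. Alternatives were a replicate block, other variance models, array weights, a dim-probe filter, other probes, normalizations and adjustments, and leaving out each mouse. Number of arrays limits precision. Detection p-values, real-time PCR and fatty acid data were not used here.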

Additional observations from a re-analysis of the deposited data

How the results depend on the processing

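No member gene was called in any comparison under any alternative in which it was tested. Of 567 member differences recomputed, 540 kept their direction and 27 turned; none passed the threshold. Members lower at an unadjusted p under 0.05 numbered 1 to 3 in HFD-ED against control and 2 to 5 in HFD-ED against HFD-CO when each mouse was left out, a range chosen after seeing the data, with the highest counts without HFD-ED replicate 1. Of all genes 5.52% to 9.31% were lower against control over these settings and 4.38% to 7.7% against HFD-CO. These shares too were highest without HFD-ED replicate 1. The probes called among all were 3 instead of 0 in HFD-ED against control with 1 probe per gene symbol. In HFD-ED against HFD-CO they were 0 instead of 1 with the replicate number as a block, a variance trend, dim probes left out, cyclic loess, only the 2 diets compared, or adjustment over the 3 comparisons together. Leaving out each mouse gave 0 to 87 called probes in HFD-ED against control and 0 to 46 in HFD-ED against HFD-CO, the highest counts without HFD-ED replicate 1, and the cause was not tested.

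The mice were fitted as unpaired, since the labels name no batch. With each diet's mean removed, 4 of 12 pairs of mice sharing a replicate number correlated above 0.1. Among them were all pairs of replicate 3, at 0.162, 0.156 and 0.371. Of the 12 mice, 3 correlated best with their own number. Samples of one number follow each other in the sample list, each diet once, and these values do not settle whether a number marks a processing block. With the replicate block no member was called, and the members lower at an unadjusted p under 0.05 were 1 instead of 2 in HFD-ED against control and 2 instead of 3 in HFD-ED against HFD-CO, Traf6 being lost from both. The share of all genes lower at that p under the block is not given here.

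Turned differences were small. For HFD-ED minus control, other probes gave 0.021 for Tnfrsf1a, 0.007 and 0.016 for Tnfrsf1b and -0.002 for Traf5. For HFD-CO minus control they gave 0.029 and 0.006 for Tnfrsf1a (0.006 for the mean of its probes), -0.001 for Tnfrsf1b, and -0.040, -0.000 and -0.027 for Traf6. For HFD-ED minus HFD-CO they gave 0.008 and 0.001 for Tnfrsf1b and 0.024 for Traf6, and array weights gave -0.003 for Traf2. The probes of 1 gene read different stretches of its RNA, and the cause was not tested. Leaving out each mouse gave, for HFD-ED minus control, -0.076 to 0.015 for Tnfrsf1b and -0.002 to 0.043 for Traf5. It gave -0.082 to 0.023 for Traf1 and -0.033 to 0.088 for Traf6 for HFD-CO minus control, and -0.034 to 0.022 for Tnfrsf1a and -0.026 to 0.038 for Traf2 for HFD-ED minus HFD-CO. Of the 8 members, 4 have a mean under 7.5, as do 75.2% of all probes, and differences are compressed there. The filter on dim probes left 11242 probes and removed those 4 members, Tnf, Tnfrsf1a, Tnfrsf11a and Traf2, which have no value under it.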
